A study of Mus musculus with 2 samples.

Results

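The MAP kinase phosphatases are dual-specificity phosphatases that switch off MAP kinases by removing phosphate from both the threonine and the tyrosine of the activation loop. The genes described are Dusp1, Dusp2, Dusp4, Dusp5, Dusp6, Dusp7, Dusp8, Dusp10 and Dusp16, taken by name from the deposited count table, and they make 9 of its 39017 genes. They had been proposed with their ratios in these same libraries known, so their values are given as a description and support no claim about the family. All 9 passed the minimum of 20 counts summed over both libraries. The lowest was Dusp8 with 76 summed counts, the next Dusp10 with 875, and no gene lay below the minimum. Dusp9, another phosphatase of this kind, is not in the group and is given with the related genes further on.

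RNA was sequenced from LSK cells (Lin- Sca-1+ c-Kit+) of mouse bone marrow, where stem cells of the blood and their multipotent offspring are found. The miR-146a-/- group was 1 library from a pool of 6 mice, and the WT group was 1 library from a pool of 12 mice. All mice had the C57BL/6J background and were 10 to 14 weeks old, and the labels give no treatment and no sex. Each genotype thus had 1 library with no replicate, no test between genotypes was possible, and every comparison is between these libraries. The intervals given are exact 95% intervals that cover counting error only, not the variation between animals.

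MAP kinases come in 3 main branches, ERK, JNK and p38, which carry signals from growth factor, cytokine and Toll-like receptors to the nucleus. Several of the phosphatase genes are themselves transcribed in response to MAP kinase activity, so that their products act as feedback brakes. The microRNA miR-146a, itself switched on by NF-kB, targets Traf6 and Irak1, which relay Toll-like receptor signals to NF-kB and to the JNK and p38 branches.

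The libraries held 22231389 counts (miR-146a-/-) and 35069136 counts (WT). Protein-coding genes took 51.5% of miR-146a-/- counts and 81.4% of WT counts, while Gm42418, a feature within a ribosomal RNA repeat, took 27.2% in miR-146a-/- and 2.13% in WT. Counts were therefore scaled by TMM, a factor that matches the bulk of genes between libraries, and are given as normalised CPM, counts scaled to the effective library size. Over the 13880 genes with at least 20 summed counts, called measured, the median log2 ratio of miR-146a-/- over WT was -0.01. Scaling by total counts lowered that median to -0.83. Mir146 had 0 counts in both libraries, so the deletion could not be checked. The pools also differed in Xist, with 49105 counts in miR-146a-/- and 10988 in WT, and a difference in the sex make-up of the pools cannot be told apart from genotype. The LSK markers Kit and Ly6a were present at 460 and 349 TPM in miR-146a-/- and 386 and 342 TPM in WT (TPM, a level scaled to exon length over protein-coding genes). All 11 LSK markers had counts in both libraries, and 0 of them were called.

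A call of higher or lower required the whole interval of the ratio to lie beyond 1.5-fold. By that rule 742 of the 13880 measured genes, 5.35%, were higher in the miR-146a-/- library, and 212 genes, 1.53%, were lower. With total counts the split became 140 higher and 7077 lower, and with total counts of protein-coding genes 496 higher and 574 lower. Of the 9 phosphatase genes, 8 were higher, 0 were lower and Dusp7 was neither. Since the genes were proposed with this contrast known, nothing is read from that count against the 5.35%. The median of the 9 log2 ratios was 1.05, against -0.01 over all measured genes. By total counts of each library the median of the 9 was 0.23, and only Dusp1 and Dusp2 were called higher while Dusp7 was called lower. By total counts of protein-coding genes 7 were called higher, and Dusp16 was not, at 0.70 (0.54 to 0.87). Under every scaling tried the median of the 9 stood 1.06 above the median of all genes measured, since scaling moves both alike.

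**Figure D1:**
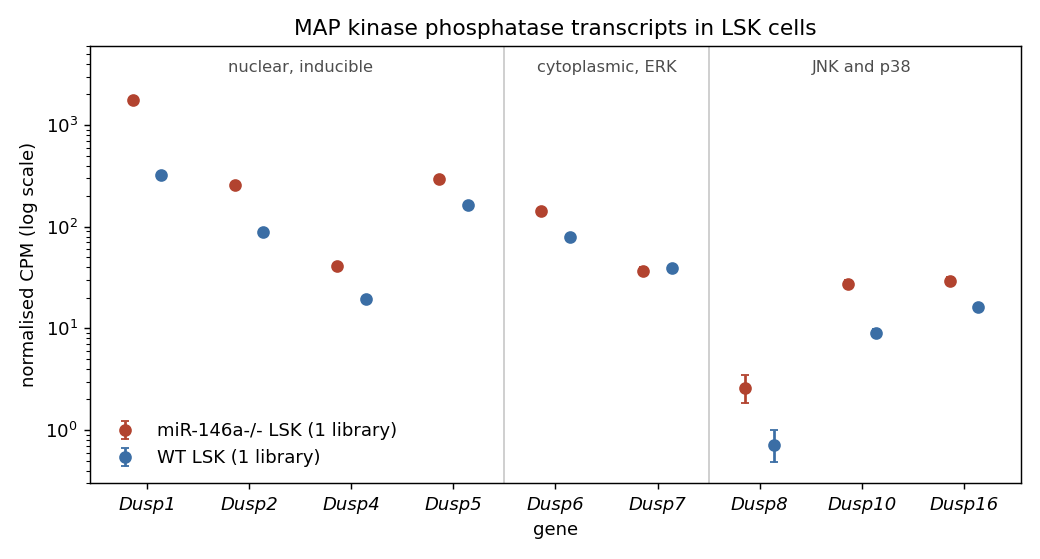
Normalised CPM (log axis) of each MAP kinase phosphatase gene, with miR-146a-/- in red on the left of each pair and WT in blue on the right, and bars for the exact 95% Poisson interval (hidden by the point where narrow). Of the 9 genes, 8 sit higher in the miR-146a-/- library, from 1762 against 320.4 CPM for Dusp1 to 2.57 against 0.708 CPM for Dusp8, and Dusp7 is at 36.8 against 39.4 CPM.

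Among the nuclear, inducible members, all 4 were higher in the miR-146a-/- library, and Dusp1 had the highest ratio of all 9. Dusp1 encodes MKP-1, an early response phosphatase that acts mainly on p38 and JNK. It had 29450 counts in miR-146a-/- and 14926 in WT, or 1762 normalised CPM in miR-146a-/- and 320.4 in WT. The log2 ratio was 2.46 (2.43 to 2.49), a 5.50-fold difference, which ranked 34th among 12319 measured protein-coding genes. In length-scaled level Dusp1 ranked 30th among those genes in miR-146a-/- and 199th in WT.

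Dusp2 encodes PAC-1, a nuclear phosphatase known from activated blood cells. It had 4287 counts in miR-146a-/- and 4093 in WT, that is 256 and 87.9 normalised CPM. The log2 ratio was 1.55 (1.48 to 1.61), or 2.92-fold. Nearly equal raw counts thus stood for a higher normalised level in the smaller miR-146a-/- library. Dusp5, which encodes a nuclear phosphatase specific to ERK, had 4938 counts in miR-146a-/- and 7561 in WT, or 295 and 162 normalised CPM, with a log2 ratio of 0.86 (0.81 to 0.92). Dusp4, whose product MKP-2 acts in the nucleus, had 681 counts in miR-146a-/- and 916 in WT, or 40.7 and 19.7 normalised CPM, with a log2 ratio of 1.05 (0.91 to 1.20). The intervals of Dusp4 and Dusp5 overlapped each other narrowly, and those of Dusp1 and Dusp2 overlapped neither.

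The promoters of Dusp1, Dusp2 and Dusp5 are shown because each carries a different response element. These elements were chosen after the ratios were seen, and a link between element and ratio was not tested. Each stretch is RefSeq sequence of GRCm38.p6, from 250 bases before to 50 bases after the RefSeq start, and 8 of the 9 genes had an entry there. Capitals mark a cyclic AMP response element (CRE, TGACGTCA), a CArG box, which is the site of serum response factor, or an EGR site (GCGNGGGCG). The stretches are, in order, chr17:26508423-26508722 (minus strand), chr2:127335909-127336208 (plus strand) and chr19:53528895-53529194 (plus strand).
Dusp1: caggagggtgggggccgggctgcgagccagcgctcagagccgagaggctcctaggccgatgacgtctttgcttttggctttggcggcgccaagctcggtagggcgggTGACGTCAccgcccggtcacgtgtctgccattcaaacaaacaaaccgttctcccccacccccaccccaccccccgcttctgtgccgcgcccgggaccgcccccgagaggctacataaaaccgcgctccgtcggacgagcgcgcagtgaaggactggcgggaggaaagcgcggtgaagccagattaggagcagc
Dusp2: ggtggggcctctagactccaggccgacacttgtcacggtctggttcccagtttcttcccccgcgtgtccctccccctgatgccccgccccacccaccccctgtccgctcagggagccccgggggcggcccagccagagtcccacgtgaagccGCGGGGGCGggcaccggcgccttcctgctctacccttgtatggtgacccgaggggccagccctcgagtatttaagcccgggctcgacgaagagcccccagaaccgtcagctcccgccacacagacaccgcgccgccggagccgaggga
Dusp5: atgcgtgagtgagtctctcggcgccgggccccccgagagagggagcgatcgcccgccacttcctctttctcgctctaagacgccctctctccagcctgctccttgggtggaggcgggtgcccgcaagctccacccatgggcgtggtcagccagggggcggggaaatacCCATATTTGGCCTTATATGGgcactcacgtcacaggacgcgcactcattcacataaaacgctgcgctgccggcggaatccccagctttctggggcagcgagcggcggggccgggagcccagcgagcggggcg
The CRE of Dusp1 began 143 bases upstream of the start. Dusp5 carried a pair of adjoining CArG boxes, beginning 82 and 72 bases upstream. Dusp2 held an EGR site beginning 98 bases upstream, which overlaps a GC box (GGGCGG). Of 32851 RefSeq promoter stretches of the same length, 1.79% held a CRE on either strand, 1.63% a CArG box and 5.55% an EGR site. A match describes the letters and does not show that a factor binds there.

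The cytoplasmic, ERK-specific phosphatases Dusp6 and Dusp7 stood apart from each other. Dusp6 encodes MKP-3, a feedback phosphatase whose transcript is a common readout of ERK activity. It had 2386 counts in miR-146a-/- and 3687 in WT, or 143 and 79.1 normalised CPM, with a log2 ratio of 0.85 (0.78 to 0.93). Dusp7 encodes MKP-X, a close relative of MKP-3. Dusp7 had 615 counts in miR-146a-/- and 1837 in WT, or 36.8 and 39.4 normalised CPM, with a log2 ratio of -0.10 (-0.23 to 0.03). The interval of Dusp7 overlapped that of none of the other 8 genes and included 0. Dusp10, at a log2 ratio of 1.59, held neither CRE, CArG box nor EGR site in its promoter stretch. The same was true of the Dusp7 promoter, chr9:106368382-106368681 on the plus strand, which is shown here.
Dusp7: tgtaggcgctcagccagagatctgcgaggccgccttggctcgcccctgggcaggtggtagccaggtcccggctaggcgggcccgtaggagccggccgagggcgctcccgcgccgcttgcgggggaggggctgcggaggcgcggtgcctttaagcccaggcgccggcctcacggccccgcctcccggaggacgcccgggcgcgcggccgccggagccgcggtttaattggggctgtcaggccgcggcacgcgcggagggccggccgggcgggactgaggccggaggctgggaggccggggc

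The class grouped here as JNK and p38 members, Dusp8, Dusp10 and Dusp16, was the least abundant, and all 3 were higher in the miR-146a-/- library. This class leaves out Dusp1, which also acts on p38 and JNK and is grouped with the nuclear members. Dusp10 encodes MKP-5, which acts on p38 and JNK. It had 455 counts in miR-146a-/- and 420 in WT, or 27.2 and 9.01 normalised CPM, with a log2 ratio of 1.59 (1.40 to 1.79). Dusp16 encodes MKP-7, which prefers JNK. It had 491 counts in miR-146a-/- and 752 in WT, or 29.4 and 16.1 normalised CPM, with a log2 ratio of 0.86 (0.70 to 1.03). Dusp8 had 43 counts in miR-146a-/- and 33 in WT, or 2.57 and 0.708 normalised CPM, and its log2 ratio of 1.84 had the widest interval of the family (1.17 to 2.56). That interval overlapped those of Dusp1, Dusp2, Dusp4 and Dusp10, so the place of Dusp8 in the order of ratios is not resolved at this depth.

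Of the 8 members with a promoter stretch, only Dusp8 and Dusp1 held a CRE in it. The Dusp8 stretch, chr7:142095235-142095534 on the minus strand, held a pair, beginning 107 and 63 bases upstream of the start.
Dusp8: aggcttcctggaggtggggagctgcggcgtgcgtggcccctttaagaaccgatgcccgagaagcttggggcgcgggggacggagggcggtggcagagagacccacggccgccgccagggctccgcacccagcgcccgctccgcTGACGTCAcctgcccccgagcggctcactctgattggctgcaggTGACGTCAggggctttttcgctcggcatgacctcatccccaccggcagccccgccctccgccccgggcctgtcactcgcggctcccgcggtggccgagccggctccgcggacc
Dusp16 held an EGR site beginning 138 bases upstream, and Dusp6 and Dusp10 held none of these 3 elements. Matches to AP-1 (TGANTCA), NF-kB, ETS (CCGGAAG) and TATA box (TATAAA) motifs were found in 0 of the 8 stretches, where 7.81%, 8.46%, 8.86% and 13.6% of all stretches held one. GC boxes were in 7 of the 8, all but Dusp6, against 35.7% of all stretches. The 8 stretches were from 57.3% (Dusp6) to 78.7% (Dusp7) G and C, against a median of 52.7% over all stretches. The motif shares were not adjusted for this base make-up.

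**Figure D2:**
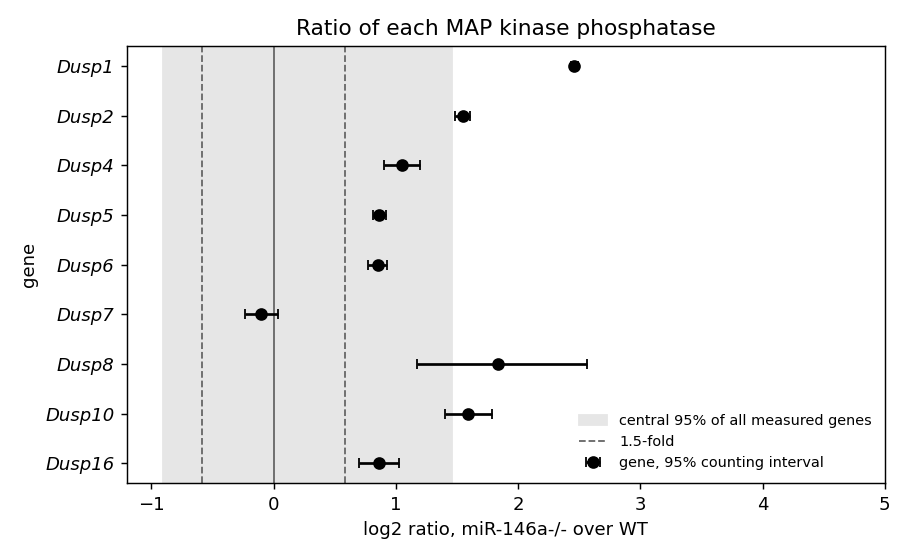
Log2 ratio of miR-146a-/- over WT for each gene, with its exact 95% counting interval, over the central 95% of all measured genes (grey, -0.90 to 1.46) and the 1.5-fold lines. Dusp1, Dusp2, Dusp8 and Dusp10 have ratios past the upper edge of the grey band, Dusp4, Dusp5, Dusp6 and Dusp16 lie between 1.5-fold and that edge, and Dusp7 lies next to 0.

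With Dusp8 left out, the ratios formed steps by their intervals. The wide interval of Dusp8 bridged these steps, since it overlapped those of Dusp1, Dusp2, Dusp4 and Dusp10. Dusp1 stood highest at 5.50-fold, Dusp2 and Dusp10 were at 2.92-fold and 3.02-fold with overlapping intervals, and Dusp5, Dusp6 and Dusp16 were at 1.82-fold, 1.80-fold and 1.82-fold with overlapping intervals. With the rule set at 2-fold, which 2.12% of all measured genes passed on the higher side, Dusp1, Dusp2, Dusp8 and Dusp10 were still called and the other 5 were not. Dusp4, at 2.07-fold, had an interval that overlapped those of Dusp5, Dusp6 and Dusp16. The lower step joined the ERK phosphatases Dusp5 and Dusp6 with the JNK phosphatase Dusp16.

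Length-scaled levels, which can be compared between genes, gave Dusp1 the first place in both libraries, at 2994 TPM in miR-146a-/- and 596 TPM in WT. Dusp2 came next in miR-146a-/- (720.4 TPM) ahead of Dusp5 (672 TPM), whereas in WT Dusp5 (404 TPM) was ahead of Dusp2 (270.3 TPM). Dusp6 was in the fourth place in both, at 256 TPM in miR-146a-/- and 156 TPM in WT. Dusp4 lay above Dusp7 in miR-146a-/- (83.7 and 61.7 TPM) and below it in WT (44.2 and 72.4 TPM). The lowest levels were those of Dusp10 at 50.3 TPM in miR-146a-/- and 18.3 TPM in WT, Dusp16 at 21.2 TPM in miR-146a-/- and 12.8 TPM in WT, and Dusp8 at 2.97 TPM in miR-146a-/- and 0.896 TPM in WT. Counting intervals of neighbours in this order did not overlap in either library. The order of Dusp10 and Dusp16 in WT turned round when coding length was used, with 0.949% and 1.24% of the family total.

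Summed over the family, the level was 4862 TPM in miR-146a-/- and 1575 TPM in WT, a 3.09-fold difference. Without Dusp1 the sums were 1869 TPM in miR-146a-/- and 979 TPM in WT, a 1.91-fold difference. TPM are scaled to the protein-coding total of each library and not by TMM, so these folds are not on the scale of the ratios above. In summed normalised CPM the log2 ratio was 1.82 for the family and 1.01 without Dusp1. Dusp1 made up 61.6% of the family in miR-146a-/- and 37.9% in WT. Dusp5 made up 13.8% in miR-146a-/- and 25.7% in WT, Dusp6 5.27% and 9.88%, and Dusp7 1.27% and 4.60%. The shares of Dusp2 were closer, 14.8% in miR-146a-/- and 17.2% in WT. These shares do not depend on the scaling between libraries. By class, the nuclear, inducible members, Dusp1 among them, held 91.9% of the family in miR-146a-/- and 83.5% in WT. The cytoplasmic ERK members held 6.54% and 14.5%. The class of Dusp8, Dusp10 and Dusp16 held 1.53% and 2.03%, which is not the share of all members that act on JNK and p38.

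**Figure D3:**
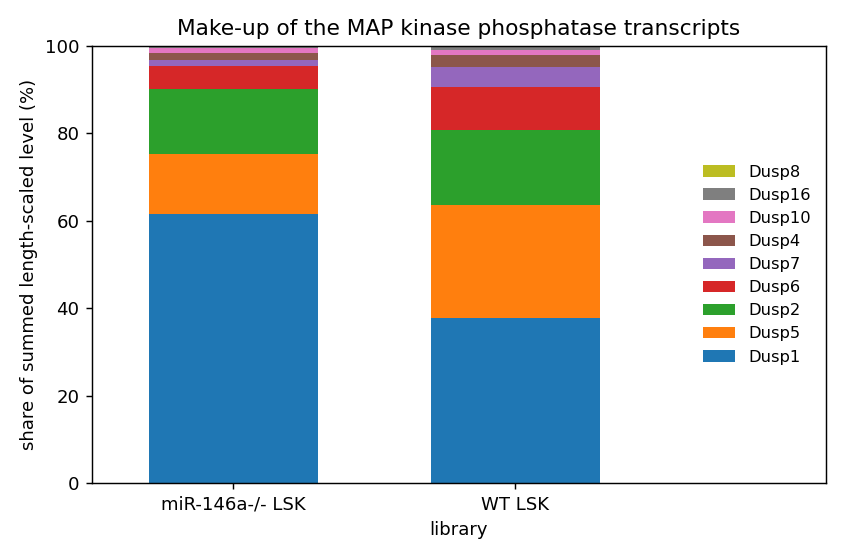
Share of each gene in the summed length-scaled level of the 9 phosphatase genes (%), as stacked bars for the miR-146a-/- library (left) and the WT library (right). Dusp1 fills 61.6% of the miR-146a-/- bar and 37.9% of the WT bar, and Dusp5, Dusp6 and Dusp7 are thinner in miR-146a-/-.

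Transcripts of MAP kinases were closer to the bulk of genes. Of 10 measured MAP kinase genes among 13 listed, 1 was called, on the higher side, and the median log2 ratio was 0.01. Mapk6, which encodes the atypical kinase ERK3, was the one called, at 0.71 (0.64 to 0.78). The p38 alpha gene Mapk14, the most abundant of the list, was at -0.06, Mapk3 was at 0.08, the JNK genes Mapk8 and Mapk9 were at 0.39 and 0.26, and the lowest was Mapk13 at -0.79.

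Upstream, 0 of 7 MAP2 kinases were called, with a median log2 ratio of 0.23 and a range from -0.31 for Map2k1 to 0.46 for Map2k6. Map2k7, which phosphorylates JNK, and Map2k3, which phosphorylates p38, had the highest length-scaled levels of them and stood at 0.33 and 0.38. Of 21 MAP3 kinase and RAF genes 1 was called higher and the median was 0.10. The one called was Map3k8, which encodes the ERK-activating kinase TPL2 that acts downstream of Toll-like receptors, with 406 counts in miR-146a-/- and 616 in WT and a log2 ratio of 0.88 (0.69 to 1.06). Map3k13 had a ratio of 1.11 on 15 and 19 counts and was not called, Map3k10 was the lowest at -0.54, and the abundant members Map3k11 and Map3k3 were at 0.37 and 0.31. Of 15 measured RAS and adaptor genes among 16 listed, 1 was called higher and the median was 0.18. The scaffold gene Gab1 was called at 0.82 (0.69 to 0.95), Hras was the lowest at -0.45, and the abundant Grb2 and Nras were at -0.08 and -0.01.

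Downstream, 0 of 11 MAP kinase effector kinases were called, with a median of -0.11. They ranged from -0.77 for Rps6ka4 to 0.33 for Rps6ka5, and the abundant Mknk2 and Rps6ka1 were at 0.08 and -0.19. Of 13 transcription factors phosphorylated by MAP kinases or acting with such factors, 0 were called, with a median of 0.30. Mef2d was the highest at 0.58 and Ets1 the lowest at -0.27, and Srf, the factor that binds CArG boxes, was at 0.33. Creb1, a factor that binds the CRE, was at -0.17.

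A list of genes known as transcriptional outputs of ERK signalling, which was chosen with earlier results of these data known, had 6 of 15 measured members higher (16 listed) and 0 lower, with a median of 0.52. This was 40% of the list, against 5.35% of all measured genes. Since the list was chosen in that way, nothing is read from the difference. The called members were Phlda1 (3.32), Egr1 (2.498), Fosl1 (2.19), Ier3 (1.64) and the ERK pathway inhibitors Spry4 (1.15) and Spry1 (1.11). Egr1, a zinc-finger early response factor that binds EGR sites, had 43996 counts in miR-146a-/- and 21710 in WT, a ratio near that of Dusp1. The other 9 were not called, the highest of them Spred3 at 0.68 (0.47 to 0.88), Spry2 at 0.52 (0.39 to 0.64) and Spred2 at 0.42 (0.31 to 0.52), with intervals above 0. Etv5 was at 0.22, Spred1 at 0.07, Etv4 at -0.10 on 6 counts in miR-146a-/- and 18 in WT, and Ccnd1 was the lowest at -0.56. The outputs of ERK signalling thus ranged from below 0 to above the ratio of Dusp1 within the list.

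Phosphatases outside the 9 were closer to the bulk of genes. Of 15 atypical dual-specificity phosphatases, which are small enzymes that lack the MAP kinase binding domain, 9 were measured and 0 were called. Their log2 ratios ran from -0.94 for Dusp28 to 0.60 for Dusp23, with a median of 0.20, and the most abundant, Dusp11, a phosphatase of RNA, was at 0.20. In the list of other MAP kinase phosphatases, 2 of 4 were measured and 0 were called. Ptpn7, a tyrosine phosphatase of MAP kinases in blood cells, had 2388 counts in miR-146a-/- and 6858 in WT and a ratio of -0.04. Dusp9 had 21 counts in miR-146a-/- and 72 in WT and a ratio of -0.30 (-1.07 to 0.42). Whether these lists differ from the 9 genes was not tested, since the 9 were chosen by their ratios.

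**Figure D4:**
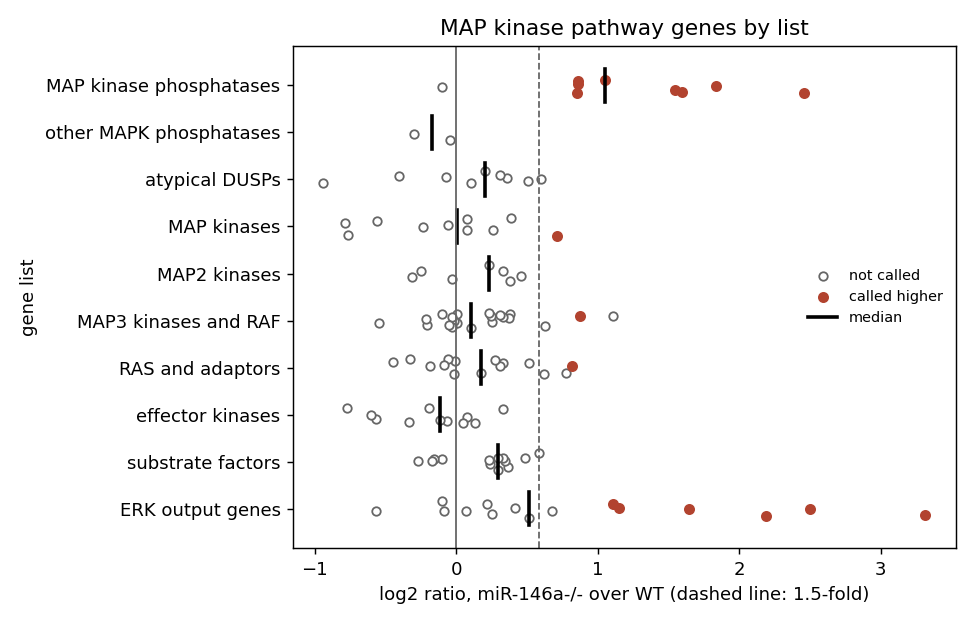
Log2 ratio of miR-146a-/- over WT for each measured gene of the 9 phosphatases and of the other lists, with called genes filled, the others open, and a bar for each list's median; points are spread vertically at random. Of the phosphatases 8 are called, of the ERK output genes 6, and of the MAP kinases, MAP3 kinases with RAF, and RAS with adaptors 1 each.

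The deleted microRNA has a 7-base match in 2 of these 9 genes. Its mature sequence from RefSeq (GRCm38.p6, chr11:43374435-43374456, minus strand) is shown with the seed, bases 2 to 8, in capitals, beside the matches found in the longest annotated 3' untranslated regions. The Dusp8 stretch is chr7:142080222-142080251 and the Dusp16 stretch chr6:134716062-134716091, both on the minus strand of GRCm38, with the 7 bases that pair with the seed in capitals.
miR-146a-5p: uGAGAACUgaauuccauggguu
Dusp8: agtcctgtcctAGTTCTCttgatcccaccc
Dusp16: aaaatgtctaaAGTTCTCaaagcttcacag
Of the 9 genes, Dusp8 and Dusp16 had a 7-base match, where 12.6% of 12249 measured protein-coding genes had one. Dusp1 and Dusp2 had none, nor a match of 6 bases, which 4 of the 9 genes and 33.6% of measured protein-coding genes held. The untranslated regions of Dusp8 and Dusp16, 2370 and 2416 bases, were the longest of the 9, against a median of 1177 bases. The shares with a match were not adjusted for length. In Dusp16 the base after the match is an A, the form of site known to be bound best, and in Dusp8 it is a T. Dusp8 and Dusp16 stood at 1.84 and 0.86, and the 7 genes with no 7-base match ranged from -0.10 to 2.46.

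The 3' untranslated regions also differed in AU-rich motifs, which mark transcripts for quick decay. Dusp1 and Dusp2 each held 4 ATTTA motifs, in 690 and 581 bases, or 5.80 and 6.88 per kilobase. The median over measured genes was 1.30 per kilobase, and 4.15% of genes were as dense as Dusp1 or denser. The densest 30 bases of each are shown with ATTTA in capitals, at chr17:26506156-26506185 (minus strand) and chr2:127337998-127338027 (plus strand) of GRCm38.
Dusp1: gctggtccttATTTATTTAacacccccctc
Dusp2: aaattaATTTAattaattaATTTActatat
Dusp10 followed with 3 motifs, or 2.70 per kilobase, and Dusp8 with 5, or 2.11 per kilobase. As dense or denser were 23.1% of genes for Dusp10 and 32.7% for Dusp8. Dusp4, Dusp16, Dusp5 and Dusp6 held from 0.840 to 1.80 per kilobase. Dusp7, the gene near 0, held none, while 69.9% of measured genes held at least 1. Across the 9 genes the 4 with the highest ratios were also the 4 densest in ATTTA, a description of 9 genes that share the same pair of libraries. The motif was chosen after the ratios were seen, and a link between density and ratio was not tested. The ratio interval of Dusp8 (1.17 to 2.56) overlapped that of Dusp4 (0.91 to 1.20), so which 4 stood highest is not resolved.

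The 9 genes lie on 9 different chromosomes: Dusp1 on 17, Dusp2 on 2, Dusp4 on 8, Dusp5 on 19, Dusp6 on 10, Dusp7 on 9, Dusp8 on 7, Dusp10 on 1 and Dusp16 on 6. Dusp4, for which no promoter is shown, spans 34807297 to 34819894 on the plus strand, Dusp6 spans 99263231 to 99267489 on the plus strand and Dusp16 spans 134715468 to 134792625 on the minus strand (GRCm38). The 9 had 3 to 7 exons, with 4 in Dusp1, Dusp2, Dusp4, Dusp5 and Dusp10, against a median of 9 over measured protein-coding genes. Dusp2 spans 2218 bases and Dusp6 4259 bases, against a median gene span of 24119 bases. Dusp16 spans 77158 bases and had a ratio close to those of Dusp5 and Dusp6, so span did not order the ratios.

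Some counts can be shared with other genes, since whether strand was used in counting is not given in the sources used here. Dusp1 (chromosome 17, 26505590 to 26562128, minus strand, GENCODE M21) has upstream exons that reach the opposite-strand gene Ergic1, which had 1876 counts in miR-146a-/- and 5419 in WT and a log2 ratio of -0.05. Dusp10 (chromosome 1, 184013302 to 184075636, plus strand) is overlapped on the other strand by 1700056E22Rik. That gene had 66 counts in miR-146a-/- and 68 in WT and a ratio of 1.43, higher as for Dusp10. Overlaps were taken from gene spans and not from exons, so whether Dusp10 and 1700056E22Rik share reads is not known. Reads from any exon bases they share cannot be told apart without strand. Dusp5, Dusp8 and Dusp16 are overlapped by non-coding genes that are not in the count table. Of 101 measured genes within 500 kb of the 9 starts, 6 were higher, 1700056E22Rik among them, and 3 were lower, with a median of -0.04, against 5.35% higher and 1.53% lower overall.

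Markers of other blood cells were compared because these phosphatases are also expressed in mature cells. Fewer cells of a type and less RNA per cell cannot be told apart in such pools. The T and NK cell markers summed to 37.6 normalised CPM in miR-146a-/- and 37.2 in WT, with Cd3e, Cd3g and Cd8a at 0 in both. Most of both sums was Nkg7, at 31.7 CPM in miR-146a-/- and 34.4 in WT. Of the 3 measured markers of this list 1 was called, Cd4, which was higher at a log2 ratio of 1.13 (0.66 to 1.62), and Klrb1c at 0.92 was not called. B cell markers summed to 16.7 in miR-146a-/- and 16.8 in WT, and erythroid markers to 3.05 and 2.73. Neutrophil markers summed to less in miR-146a-/-, 4.91 CPM against 12.1 in WT. Of 5 measured markers 3 were called lower, S100a9 at -1.24, Ngp at -1.38 and Ltf at -2.80. Camp at -1.70 and S100a8 at 0.30 were not called. Monocyte and macrophage markers summed to more in miR-146a-/-, 93.5 CPM against 57.3 in WT. Most of both sums was Itgam, at 56.8 CPM in miR-146a-/- and 35.9 in WT. Ly6c2 was called at 1.75, and 4 other measured markers were not called. Of the 5 measured, 4 had ratios above 0, and Adgre1 was at -0.58 on 4 counts in miR-146a-/- and 17 in WT. C1qa, below the minimum, had 1 count in miR-146a-/- and 7 in WT. The part of these markers, of the ribosomal features and of the sex make-up in the phosphatase ratios was not tested.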

How the data were processed

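The authors deposited whole-number read counts per Ensembl gene for each library, with no normalisation, and only these counts were used. Per the file headers, splice junctions were placed on the genome and duplicates were flagged. Salmon 0.9.0, STAR 2.5.3a and mm10 are listed, without roles, per the submitters' processing notes. The counting program and annotation are not given in the sources used.

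GENCODE M21 named 37693 of 39017 identifiers. Scaling used TMM in edgeR 4.0.16 (R 4.3.3). No test was possible without replicates, so no p-value is given. Log2 ratios used a prior count of 0.5, with Clopper-Pearson 95% intervals of the share of counts. Interval code was tested on simulated data. TPM were computed from counts per kilobase of exon union over protein-coding genes. Python 3.11.15 was used.

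Genes and lists were chosen with earlier results of these data known, and the promoter motifs and AU-rich motifs after the ratios were seen. Named genes were the 9 phosphatases and, in each pathway list, called genes, the highest, the lowest and the most abundant. Added after their values were seen were Srf, Creb1, Etv4, Etv5, Spred1, Mapk3, Mapk8, Mapk9, Dusp9, Spry2, Spred2 and Spred3. The same holds for called genes of the marker lists and for Nkg7, Klrb1c, Camp, S100a8, Itgam, Adgre1 and C1qa. One gene of the MAP kinase list is not reported here, and the list's values leave it out. Alternatives were DESeq2 1.42.0, upper-quartile and total-count scaling, other filters, priors, thresholds and lengths, length and GC adjustment, and thinning.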

Additional observations from a re-analysis of the deposited data

How the results depend on the processing

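No paired analysis was possible because each genotype had 1 library, and for the same reason no replicate could be left out. Scaling by total counts gave 140 higher and 7077 lower genes, 2 phosphatase genes higher and 1 lower, a phosphatase median of 0.23, and 4 higher and 42 lower genes in the other lists, where TMM gave 742 higher and 212 lower genes, 8 and 0 phosphatase genes, a median of 1.05, and 9 and 0 list genes. Total counts of protein-coding genes gave 574 lower genes, a phosphatase median of 0.89, and 5 higher and 2 lower list genes, with 7 phosphatase genes higher and the call of Dusp16 lost. A minimum of 200 counts gave 491 higher and 130 lower genes and left Dusp8 out. No filter gave 322 lower genes and 1 lower list gene, and length and GC adjustment gave 124 lower genes. The 2-fold rule, stricter by construction, gave 294 higher and 42 lower genes, 4 phosphatase genes and 4 list genes. Dusp1 held 67.2% of the family in miR-146a-/- and 44.3% in WT by longest transcript, and 68.1% and 44.4% by coding length. A 6-base seed match was in 4 phosphatase genes against 2 with the 7-base match. Dusp1 ranged from 1.64 to 2.54 and Dusp2 from 0.72 to 1.65 over 10 alternatives and both stayed higher in each. Filters change which genes enter and the scaling, and the cause was not tested for these or for the adjustment. Depth limits Dusp8 most, with 43 and 33 counts.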
